A study of Mus musculus with 2 samples.

Results

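Mir221 and Mir222 are neighbouring X-linked microRNA genes, and both were found by GENCODE gene name in the deposited count tables, 2 of 1973 listed genes. The counts come from small RNA sequencing (RNA under 30 nucleotides) of forebrain from B6NCrl mouse embryos, healthy, at embryonic day 13.5, with males and females pooled. There were 2 libraries, biological replicates 1 and 2 of 1 group, with no genotype, treatment or age to compare. The labels give them separate biosamples under 1 donor identifier and do not name the embryos in each pool, so their spread may be partly technical.

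MicroRNAs are cut from hairpin precursors and pair with messenger RNAs through the seed, bases 2 to 8 of the mature strand, which lowers the output of the target. The products of Mir221 and Mir222 share a seed and are known for repressing Cdkn1b (p27) and Cdkn1c (p57), Cip/Kip inhibitors that hold cells in G1, and the receptor tyrosine kinase gene Kit. They are known from endothelium, vascular smooth muscle, blood precursors and many tumours. In the embryonic forebrain, leaving the cell cycle is the step at which progenitors become neurons, and Cdkn1b and Cdkn1c act at that step.

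Both hairpins lie on the minus strand of chromosome X (GRCm38, also called mm10). Mir221 (ENSMUSG00000065422.1) spans 95 bases at chrX:19146294-19146388, and Mir222 (ENSMUSG00000065471.1) spans 79 bases at chrX:19146893-19146971. A stretch of 504 bases separates them. Read in the direction of transcription, Mir222 comes first. In GENCODE M21 no other gene overlaps either hairpin, so both are intergenic there. The nearest gene upstream is the non-coding Gm14636 on the same strand, 10.009 kb away, and the nearest downstream is a processed pseudogene, Gm5383, 203 kb away.

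The mature strands are shown because the seed is what groups the genes (RefSeq, GRCm38.p6, 5′ to 3′, seed in capitals). Both genes matched the RefSeq table.
miR-221-3p: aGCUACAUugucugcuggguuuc
miR-222-3p: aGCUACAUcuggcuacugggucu
miR-1928: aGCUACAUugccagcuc
miR-221-5p: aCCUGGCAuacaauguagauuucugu

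Among 1738 mature mouse sequences in that table, 3 carried this seed: miR-221-3p, miR-222-3p and miR-1928. The 3p strands of Mir221 and Mir222, each 23 nucleotides long, were identical over their first 8 bases. Compared position by position without gaps, they matched at 11 of 23 positions, and in a global alignment that allows gaps 19 bases matched. Every difference lies beyond the seed. The strand from the other arm of the Mir221 hairpin, miR-221-5p, has a different seed. The tables give 1 count per gene, and reads from the arms of 1 hairpin cannot be told apart in them.

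The hairpins are printed with the 3p strand in capitals, since a read can be assigned to a gene only where the hairpins differ.
Mir221 hairpin: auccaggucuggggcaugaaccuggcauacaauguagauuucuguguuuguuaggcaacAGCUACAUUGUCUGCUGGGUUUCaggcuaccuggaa
Mir222 hairpin: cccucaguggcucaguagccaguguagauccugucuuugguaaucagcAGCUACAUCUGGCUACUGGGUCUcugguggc

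The longest stretch common to both hairpins was 9 bases. Neither gene shared a stretch of 20 or more bases with any other annotated microRNA, and the complete 3p sequence of each occurred in 1 of 141767 annotated transcripts, its own. The deposited tables list multi-mapped reads in a row apart from the genes, with 40.6% of reads in replicate 1 and 43.9% in replicate 2. Whether such reads also entered gene counts is not stated, and they were taken not to have. By the annotated transcripts, which are not the whole genome, there was no copy of either 3p strand that would send its reads there.

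Mir221 was counted 1143 times in replicate 1 and 928 times in replicate 2. Relative to 1000000 gene counts (CPM) these were 278 CPM (95% exact Poisson interval 262 to 294) and 237 CPM (222 to 253). The mean was 257 ± 28.4 CPM (SD, n = 2), which placed Mir221 at rank 153. Replicate 1 was the higher library, and the counting intervals of the libraries did not overlap.

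Mir222 was counted 630 times in replicate 1 and 481 times in replicate 2. Its level was 153 CPM (141 to 165) and 123 CPM (112 to 135), with a mean of 138 ± 21.2 CPM (n = 2) and rank 188. It too was higher in replicate 1, with intervals that did not overlap. No read fell on the opposite strand at either gene. The libraries held 4117752 and 3908953 gene counts, so that 1 count equalled 0.243 and 0.256 CPM. These intervals describe counting error alone. PCR copies of 1 molecule are counted as separate reads, so the intervals may be too narrow even for that.

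By these counts both genes were of middling abundance. Among the 377 detected genes, meaning those with 10 or more counts in both libraries, 59.4% had a lower mean CPM than Mir221 and 50.1% a lower one than Mir222. Mir221 had 1.87 times the CPM of the median detected gene (137 CPM), and Mir222 had 1.00 times. Together the genes held 0.0396% ± 0.00496 of gene counts, from 0.0431% in replicate 1 to 0.0360% in replicate 2. In bulk tissue, few cells with much of a microRNA and many cells with little of it cannot be told apart.

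**Figure D1:**
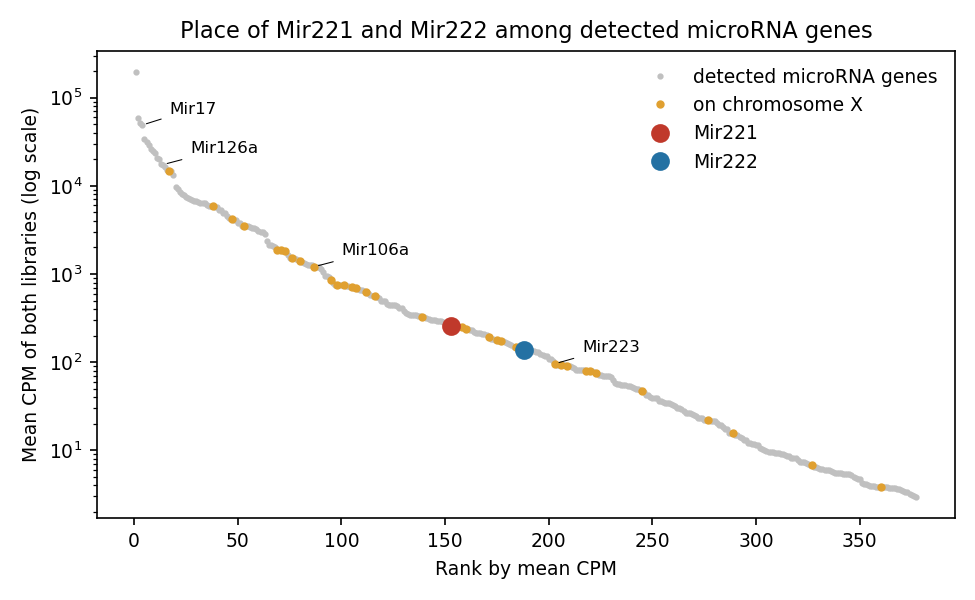
Mean CPM of both libraries (log scale) against rank for the 377 detected microRNA genes, with X-linked genes in orange and Mir221 and Mir222 as large points. Mir221 (257 CPM) and Mir222 (138 CPM) sit in the middle of the curve, below Mir17, Mir126a and Mir106a and above Mir223.

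The third gene with the seed, Mir1928 (ENSMUSG00000087820.1, chr1:74206554-74206620), had 0 counts in both libraries. For a count of 0 a bound of 3 counts was taken (a one-sided 95% Poisson limit), or 0.729 CPM in replicate 1 and 0.767 CPM in replicate 2. This bound covers only reads that were counted for genes. The miR-1928 strand, 17 nucleotides long, was not searched for in other transcripts, and any reads of it among the multi-mapped ones would be missed. At this depth the reads counted for the seed family therefore came from Mir221 and Mir222.

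The genes next to them in the order of mean CPM could not be separated from them. Just above Mir221 stood Mir485 of the imprinted Dlk1-Dio3 region (304 and 241 CPM) and Mir92a-2 (Mir92-2 in the annotation), an X-linked gene of the Mir106a to Mir363 cluster (275 and 245 CPM). Just below were Mir669l (272 and 242 CPM) and Mir214, a mesenchymal microRNA (334 and 177 CPM). Mir669l was nearest in counted level, at a difference of 0.0034 on the log2 scale of mean CPM over 2 libraries. Mir669l has 35 copies, meaning annotated microRNAs that share a stretch of sequence with it, and Mir92a-2 has 1. Reads of both genes may thus be among the multi-mapped ones, and their counts may be too low. The nearness of Mir669l and Mir92a-2 to Mir221 is one of counts and not known to be one of abundance. Around Mir222 stood Mir877 (148 and 134 CPM) and Mir679 (167 and 110 CPM) above, and Mir329 (142 and 133 CPM) and Mir182, a sensory organ microRNA (183 and 88.5 CPM), below. The nearest to Mir222 was Mir679, at a difference of 0.0053. The range of each of these 8 genes overlapped that of the member beside it, and over all detected genes 15 ranges overlapped that of Mir221 and 19 that of Mir222. The ranges of Mir221 and Mir222 themselves did not overlap.

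**Figure D2:**
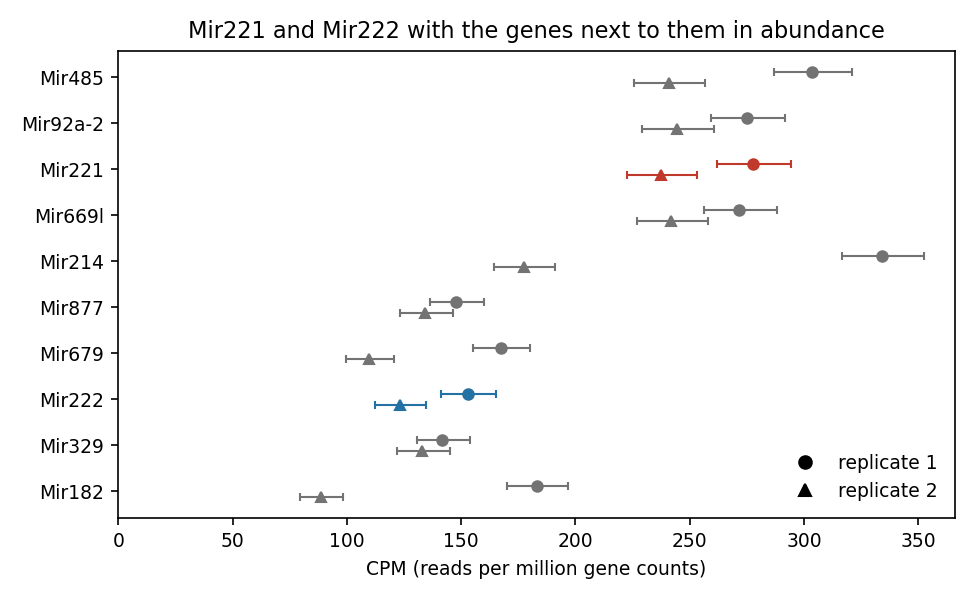
CPM of Mir221 (red), Mir222 (blue) and the 8 genes next to them in mean CPM, in replicate 1 (circles) and replicate 2 (triangles), with 95% exact Poisson intervals as bars. Each gene is lower in replicate 2, and Mir214 and Mir182 show the widest gaps between the libraries.

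Within the cluster, Mir221 was the higher gene in both libraries. It had 1.81 counts for each count of Mir222 in replicate 1 (95% Clopper-Pearson interval 1.64 to 2.00) and 1.93 in replicate 2 (1.73 to 2.16), a mean of 1.87 ± 0.0813 (n = 2). Written the other way, Mir222 over Mir221 was 0.551 (0.499 to 0.608) and 0.518 (0.463 to 0.579). The ratio of each library lay inside the counting interval of the other, while both levels were lower in replicate 2. The 3p strands have the same length, and no length correction was made. Reads from either arm of a hairpin enter the counts, so the ratio is one of genes and not known to be one of 3p strands. Whether both genes were captured equally well was not measured.

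Other microRNA clusters of exactly 2 genes (same strand, starts within 10 kb) were taken as a reference. Of 97 such clusters in the annotation, 24 had both genes detected, and Mir221/Mir222 was number 6 from the most even. The median ratio of the higher over the lower gene was 6.63, and 4.44 in the 13 clusters where neither gene has a near-identical copy. Nearest to it were the related genes Mir181c and Mir181d (1.86 ± 0.116), the X-linked Mir224 and Mir452 (1.85 ± 0.0452), the imprinted Mir296 and Mir298 (1.92 ± 0.180) and Mir15a and Mir16-1, which repress cyclins (1.56 ± 0.0285). At the extremes stood Mir374b and Mir421 (1.23 ± 0.0448) and Mir99a and Mirlet7c-1 (565 ± 6.76). Mir16-1 and Mirlet7c-1 have copies, so reads of theirs may be among the multi-mapped ones.

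**Figure D3:**
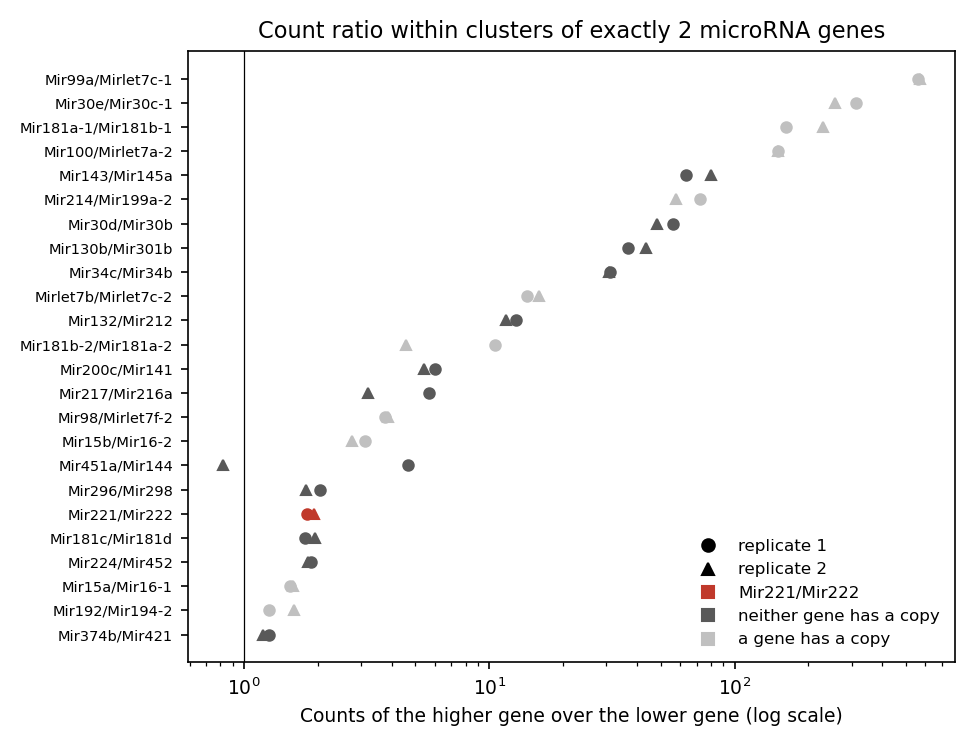
Counts of the more abundant gene over those of its partner (log scale) in the 24 detected clusters of exactly 2 microRNA genes, with replicate 1 as circles and replicate 2 as triangles. Mir221/Mir222 (red) lies at 1.81 and 1.93, among the even clusters, and lighter grey marks clusters in which a gene has a copy.

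Between the libraries both genes were lower in replicate 2, by little. After TMM normalization Mir221 had a log2 ratio (replicate 2 over replicate 1) of -0.12 (95% exact interval -0.24 to 0.01; exact binomial test, two-sided, Benjamini-Hochberg adjusted p = 0.144). For Mir222 it was -0.21 (-0.38 to -0.03; adjusted p = 0.0491 by the same exact test). At an adjusted p under 0.05 this test passed 38.9% of the 475 genes tested (20.8% lower and 18.1% higher in replicate 2), beside which 1 of the 2 members passing shows nothing particular to them. With an absolute log2 ratio over 1 required as well, 3.37% of genes were called and neither member was. The test compares these libraries and covers counting error only. With edgeR's exact test and the dispersion estimated from these libraries, neither member passed (adjusted p = 1 for each, unadjusted p = 0.70 and 0.51). That dispersion was estimated with both libraries treated as replicates. The difference under test thus also set the noise, few genes could pass, and no conclusion is drawn from this outcome.

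Relative to the median log2 ratio of detected genes, 0.03, Mir221 was lower by 0.14 and Mir222 by 0.23. Of the 377 detected genes, 122 had a lower ratio than Mir221 and 99 a lower one than Mir222. The log2 ratio differed between the members by 0.09, less than the median difference of 0.17 within the 24 clusters of 2 genes, and 7 of those clusters had a smaller difference. The closest agreement was in Mir100 and Mirlet7a-2 (0.30 and 0.30), and Mir451a and Mir144 were farthest apart (-1.73 and 0.77). With library totals in place of TMM, both members passed the exact binomial test, at log2 ratios of -0.23 for Mir221 (adjusted p = 0.00134) and -0.31 for Mir222 (adjusted p = 0.00108). That scaling moved the median of all detected genes by -0.11.

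**Figure D4:**
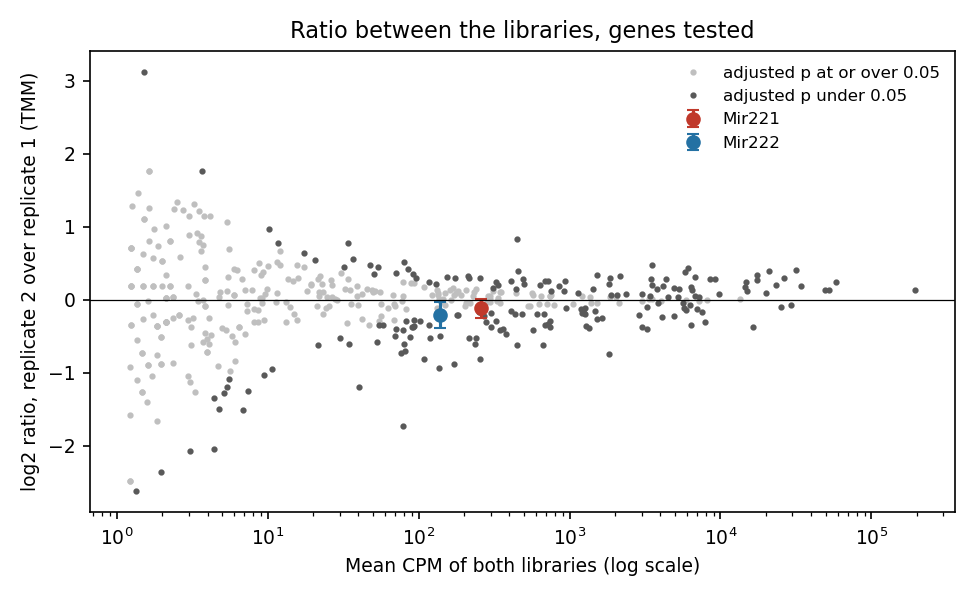
log2 ratio of replicate 2 over replicate 1 after TMM normalization against mean CPM (log scale) for the 475 genes tested, dark where the adjusted p of the exact binomial test is under 0.05, with Mir221 (red) and Mir222 (blue) and their 95% exact intervals. Both members lie slightly below 0, within the scatter of genes of like abundance.

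Other microRNAs that are known for repressing Cip/Kip inhibitors were, as a group, far more abundant. The list held the Mir17 family, which targets Cdkn1a (p21), and the family of Mir25, Mir32, Mir92 and Mir363, which targets Cdkn1c, and all 12 genes were detected. Each had a higher mean CPM than Mir221, and they summed to 12.7% of gene counts in replicate 1 and 13.3% in replicate 2, against 0.0431% and 0.0360% for Mir221 and Mir222. The leading gene, Mir17, had 48546 and 49430 CPM, 190-fold the mean of Mir221. Mir93 (22627 and 24195 CPM), Mir20a (18786 and 22847 CPM) and Mir106b (14302 and 14917 CPM) followed, with 90.9-fold, 80.8-fold and 56.7-fold the mean of Mir221. The lowest, Mir92a-2 at 260 ± 21.6 CPM, overlapped Mir221. Mir92a-2 and Mir92a-1 have copies, so reads of theirs may be among the multi-mapped ones. These values compare reads, and the capture of different microRNAs may not be even. In the exact binomial test 5 of the 12 passed as higher and 2 as lower in replicate 2, beside 18.1% higher and 20.8% lower of all genes tested. With library totals 5 passed as higher and 4 as lower. The median log2 ratio of the 12 was 0.09, and -0.02 with library totals, against 0.03 and -0.08 over all detected genes. The test passes smaller ratios at higher counts, and the list had a median of 3055 CPM, against 137 CPM over all detected genes. Of 113 detected genes with 300 to 2500 counts in replicate 1, 53.1% passed in either direction. The shares over all genes are thus not matched in depth, and no conclusion is drawn from them.

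On the opposite side of the G1 to S step, microRNAs known for repressing cyclins or cyclin-dependent kinases held 13.1% ± 1.00 of gene counts. Of the 25 names listed, Mir497a, Mir497, Mirlet7e and Mirlet7f-1 were not found among the measured genes. Copies exist for 7 of the 21 found, so reads of theirs may be among the multi-mapped ones. The share may thus be too low, and it was 12.4% without those 7. Of the 21 measured genes 14 lay above Mir221, 3 between the members and 4 below Mir222. Mirlet7g (55243 and 60926 CPM) led, followed by Mirlet7i (28495 and 35065 CPM), Mirlet7d (8523 ± 716 CPM) and Mir15a (6799 ± 696 CPM). The genes between the members were Mirlet7c-2, Mirlet7a-2 and Mirlet7a-1, which have copies. The family of Mir34 and Mir449, known from multiciliated cells, was split, with Mir449a (6352 ± 1409 CPM) and Mir34c (663 ± 233 CPM) above Mir221 and Mir34a (69.6 ± 6.60 CPM), Mir34b, Mir449b and Mir449c below Mir222. Between the libraries 11 of the 21 were higher and 3 lower in replicate 2 past the exact test, beside the same 18.1% and 20.8% of all genes. Those shares are again not matched in depth, and no conclusion is drawn from them. The median log2 ratio of the 21 was 0.20 (0.09 with library totals), against 0.03 (-0.08 with library totals) over all detected genes.

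The reference messenger RNA of Cdkn1b shows what the seed pairs with, although no messenger RNA was measured here. Its 3′ untranslated region (3439 bases in the longest GENCODE M21 form, chromosome 6, plus strand) was searched on the sense strand for ATGTAGC, the match to bases 2 to 8, and TGTAGCA, the match to bases 2 to 7 followed by A. These motifs overlap as ATGTAGCA, which was counted once. There were 3 matches within 163 bases, present in all 3 annotated forms, shown with the match in capitals.
Cdkn1b site 1, chr6:134924419-134924442: taaaagcattggATGTAGCAttgc
Cdkn1b site 2, chr6:134924495-134924518: ttatcttttactcTGTAGCAcata
Cdkn1b site 3, chr6:134924574-134924597: acttgcttcaattTGTAGCAagga

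The first match has all 8 letters. Of 988 mouse 3′ untranslated regions within 10% of its length, 38.1% held at least 1 such match, 9.82% held the 8-letter form and 1.72% held at least 3 matches. Cdkn1c, with 688 bases, held 1 match of 8 letters, as did 1.20% of regions of like length. Kit, with 2177 bases, held 2 matches of 8 letters, and 5.20% of regions of like length held at least 1. Among the 8 known target genes reported, all 8 held a match of some kind, and 6 the 8-letter form. Over the longest 3′ untranslated region of each of 21028 genes, 15.6% held a match and 3.50% the 8-letter form. These regions are of all lengths, and the 8 genes were chosen as known targets of this seed. Matches in them were therefore likely from the start, and no conclusion is drawn from the difference. Timp3, a metalloproteinase inhibitor, and Foxo3 held only 7-letter matches, which were frequent in regions of their length (40.8% and 44.9% held a match). A match describes the reference sequence and shows neither binding nor repression.

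On chromosome X, 120 microRNA genes were measured and 39 detected, among which Mir221 ranked 20 and Mir222 ranked 28. The 118 other X-linked genes held 4.55% ± 0.0994 of gene counts, led by Mir322 (14834 ± 1015 CPM), Mir98 (5843 ± 775 CPM), Mir652 (4180 ± 163 CPM) and Mir361 (3513 ± 155 CPM). The locus stands alone: the nearest measured microRNA genes were Gm24824, 1677 kb away, and Mir5617, 1716 kb away on the higher side, and Gm22464, 3438 kb away on the lower. Gm24824 and Gm22464 had 0 counts in both libraries, and Mir5617 had 3 and 2.

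MicroRNAs that mark the vessel cells in which Mir221 and Mir222 are known were present. The endothelial Mir126a had 16042 and 18828 CPM, the mural Mir143 3081 and 3970 CPM, and the mural Mir145a 49.2 ± 0.577 CPM, so that all 3 measured vessel markers were detected. They summed to 19172 CPM in replicate 1 and 22848 CPM in replicate 2. All 3 were higher in replicate 2, 2 of them past the exact test (18.1% of all genes tested passed as higher), with a median log2 ratio of 0.34 (0.23 with library totals), whereas Mir221 and Mir222 were lower. The 3 measured erythroid markers summed to 159 and 86.2 CPM, of which Mir451a had 123 and 34.3 CPM, Mir144 26.5 and 42.0 CPM and Mir486 9.71 and 9.98 CPM. The lower sum in replicate 2 came from Mir451a. The 3 measured leukocyte and microglia markers summed to 274 and 278 CPM. Markers of neural progenitors and neurons, which the dissection should hold, summed to 25164 and 21543 CPM, with 7 of 9 measured members detected and none at 0. They were led by Mir92b (13897 and 12964 CPM) and Mir137 (8954 and 6750 CPM). Mir128-1, Mir9-3 and Mir128-2 had means of 746, 738 and 575 CPM. The means of Mir124a-2, Mir9-2, Mir124a-1 and Mir124a-3 were only 4.86, 4.73, 1.74 and 0.748 CPM. Of the 9 measured, 7 have copies, so reads of theirs may be among the multi-mapped ones. The part of any of these cell types in the levels of Mir221 and Mir222 was not tested.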

How the data were processed

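Per the file headers in the read-me texts, the authors aligned reads to mm10 and used GENCODE M4. The deposited values are whole-number counts of reads per microRNA gene, 1 table per library, for either strand, the own strand of the gene and the opposite strand. The aligner and counter, not given in the sources used here, could not be checked. Own-strand counts were used. Summary rows stayed out of library sizes, and in replicates 1 and 2 they held 16.7% and 15.0% unmapped, 40.6% and 43.9% multi-mapped and 3.99% and 3.71% unassigned of 10631040 and 10452225 reads.

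Gene names and positions came from GENCODE M21 on the same build (1894 of 1973 identifiers matched), with 2 list names taken from RefSeq synonyms. CPM was computed from the counts over gene counts of the library. The libraries were compared with a two-sided exact binomial test (scipy 1.17.1) on TMM library sizes (edgeR 4.0.16, R 4.3.3), with a prior count of 0.5 in the log2 ratio, over genes with at least 10 counts in both libraries together, with Benjamini-Hochberg adjustment. DESeq2 1.42.0 gave alternative size factors. On simulated libraries the test, with the log2 ratio over 1 also required, called 100% of 100 genes changed 4-fold and 0 unchanged ones, of 474 tested. The simulated counts had Poisson error only, without the further spread between real libraries. The simulation therefore does not gauge the adjusted p of small ratios such as those of the members. With 1 group, no test between conditions exists.

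Members and lists were chosen with earlier results of these data known. Named genes were the members, genes sharing their seed, the 2 genes next above and below each in mean CPM, up to 4 leading genes of each list, the 4 clusters nearest in ratio and the extremes, and the X-linked neighbours. Further genes were named after their values were seen. Of the target genes listed for the seed search, 1 is not reported here.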

Additional observations from a re-analysis of the deposited data

How the results depend on the processing

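Relative to 1000000 reads of any kind in place of gene counts, the mean level was 98.2 for Mir221 and 52.6 for Mir222, since most reads lie outside the gene counts. With TMM library sizes, DESeq2 size factors or either-strand counts, both means moved by less than 1 SD. The TMM and DESeq2 scalings raise 1 library and lower the other, so they could hardly move a mean of 2 libraries. Leaving out a library gave 237 to 278 CPM for Mir221, 123 to 153 CPM for Mir222 and a ratio of Mir222 over Mir221 of 0.518 to 0.551. The log2 ratio between the libraries was below 0 in all 7 settings for both members, from -0.23 to -0.12 for Mir221 and from -0.31 to -0.21 for Mir222. Whether it passed an adjusted p of 0.05 in the exact binomial test depended on the setting, with adjusted p from 0.00134 to 0.571 for Mir221 and from 0.00108 to 0.200 for Mir222. Mir221 passed with library totals (-0.23) and DESeq2 size factors (-0.16, adjusted p = 0.0287). Mir222 did not pass with no filter, where 1973 genes were tested (-0.21, adjusted p = 0.200), or with edgeR's exact test (-0.21, adjusted p = 1, as for Mir221). The edgeR test passed 1 gene in all, with 31 at an unadjusted p under 0.05, against 185 with the binomial test (214 unadjusted). Its dispersion came from the same difference between the libraries, so few genes could pass it. Genes also past the log2 ratio of 1 numbered 16, and 10 with no filter, 2 with at least 50 counts in each library and 1 with edgeR. With library totals 54 genes passed as higher and 141 as lower, against 86 and 99 with TMM. Leaving out a library leaves no ratio between libraries. Without genes that have copies the Cip/Kip list held 12.5% of gene counts.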
